A study of Homo sapiens with 21 samples.

Results

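Cells of the human hepatoma line C3A that received glyphosate together with 2,4-D were compared with C3A cells that received glyphosate alone. The comparison takes 6 of the 21 libraries of the series, 3 per group, and asks what 2,4-D added to the transcriptome of glyphosate-exposed cells. The mixture held glyphosate at 5.6 µM (0.95 µg/mL) and 2,4-D at 2.5 µM (0.56 µg/mL), the single exposure held glyphosate at the same 5.6 µM, and both lasted 48 h. All doses lay far under the inhibitory concentrations that the labels refer to. Set beside this comparison were cells given AMPA at 34 µM (3.7 µg/mL) together with 2,4-D, cells given AMPA alone and cells given 2,4-D alone, with 3 libraries each and each compound at the dose above, and 6 libraries of unexposed cells. C3A is a clonal derivative of the liver tumour line HepG2, so all groups share 1 clone and its tumour background and carry the label of wild type. Whether the replicates came from separate cultures is not given, so a p-value speaks of the spread between these libraries, which may be technical.

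Glyphosate is a herbicide that blocks a plant and microbial enzyme of aromatic amino acid synthesis, and AMPA is its main breakdown product. 2,4-D is a synthetic auxin, a class that plants sense through receptors that animal cells lack. It is a phenoxy acid, handled in mammals by organic anion carriers, and some phenoxy acids activate the nuclear receptor PPAR alpha in rodent liver. Hepatoma cells keep part of the hepatocyte programme, such as the secretion of albumin, fibrinogen and apolipoproteins and the breakdown of amino acids, beside the growth factor signalling and the high glycolysis of a tumour line.

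In the main fit few genes were called between glyphosate+2,4-D and glyphosate, and most differences were small. The number called depended on the fit, as given below. Of 12131 genes tested, 4 were called (0.033%), with 1 higher (0.00824%) and 3 lower (0.0247%) in glyphosate+2,4-D. The gene that rose was TECTB, which encodes beta-tectorin, a structural protein known from the tectorial membrane of the inner ear. The genes that fell were IL11, a cytokine of the interleukin-6 family, SPRY4, a feedback inhibitor of receptor tyrosine kinase and ERK signalling, and ARFGEF3, a large protein related to the exchange factors of ARF GTPases. A gene was tested when it had 1 FPKM or more (fragments per kilobase of gene, scaled to sequencing depth, the deposited unit) in at least 3 of the 6 libraries, and called at an adjusted p under 0.05 (limma over the 15 exposed libraries, Benjamini-Hochberg over all genes tested).

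The promoters of the 4 called genes are shown because they are the sequences that precede the only genes past the test. They come from RefSeq on GRCh38.p14, run from 250 bases before to 50 bases after the annotated start, and read 5′ to 3′ on the strand of the gene. Capitals mark the AP-1 motif (TGANTCA) and the hypoxia-response core ACGTG.
TECTB, plus strand, chr10:112283150-112283449: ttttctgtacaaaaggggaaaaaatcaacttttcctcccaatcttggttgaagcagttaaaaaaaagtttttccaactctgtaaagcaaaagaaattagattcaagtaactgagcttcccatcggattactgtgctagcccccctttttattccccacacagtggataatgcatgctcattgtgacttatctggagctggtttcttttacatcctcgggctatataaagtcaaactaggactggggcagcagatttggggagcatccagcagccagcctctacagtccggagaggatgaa
IL11, minus strand, chr19:55370414-55370713: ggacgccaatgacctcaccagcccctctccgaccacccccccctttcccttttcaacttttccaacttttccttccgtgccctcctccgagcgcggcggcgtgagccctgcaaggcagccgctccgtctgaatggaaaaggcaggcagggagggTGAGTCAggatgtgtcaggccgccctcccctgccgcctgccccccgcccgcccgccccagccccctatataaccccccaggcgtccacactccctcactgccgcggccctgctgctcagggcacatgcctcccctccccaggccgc
SPRY4, minus strand, chr5:142324198-142324497: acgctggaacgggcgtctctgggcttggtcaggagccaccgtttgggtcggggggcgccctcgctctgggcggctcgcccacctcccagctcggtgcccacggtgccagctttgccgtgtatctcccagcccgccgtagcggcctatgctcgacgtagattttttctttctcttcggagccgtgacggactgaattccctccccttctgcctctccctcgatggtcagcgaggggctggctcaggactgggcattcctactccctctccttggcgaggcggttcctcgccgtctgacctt
ARFGEF3, plus strand, chr6:138161689-138161988: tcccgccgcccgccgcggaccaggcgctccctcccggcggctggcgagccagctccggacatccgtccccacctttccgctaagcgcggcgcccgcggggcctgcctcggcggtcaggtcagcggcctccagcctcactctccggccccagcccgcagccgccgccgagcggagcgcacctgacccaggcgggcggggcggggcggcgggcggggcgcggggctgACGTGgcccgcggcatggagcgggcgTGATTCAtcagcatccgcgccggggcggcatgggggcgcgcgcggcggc
The motifs below were searched on both strands by their letters. The AP-1 motif is held by 7.71% of 35116 RefSeq promoters of this length, the hypoxia-response core by 21.4%, the ETS motif CCGGAAG by 10.3% and the cAMP-response motif TGACGTCA by 1.85%. In the window of IL11 the AP-1 motif began 96 bases before the start, and ARFGEF3 held the hypoxia-response core 25 bases before the start and an AP-1 motif just after it. None of these letters was found in the windows of TECTB and SPRY4. The start that RefSeq gives for SPRY4 lies inside the gene as the files annotate it. A match is a run of letters and was not tested as a binding site.

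The libraries held 15.83, 16.33 and 15.35 M reads in glyphosate+2,4-D and 19.87, 24.35 and 15.20 M reads in glyphosate, recovered from the FPKM values. Genes tested included 10106 protein-coding ones, and 20 passed the filter only through glyphosate+2,4-D and 29 only through glyphosate. At the edge of the filter, 351 genes reached 1 FPKM in exactly 3 of the 6 libraries and 466 in exactly 2. As for the identity of the cells, the 8 hepatocyte and hepatoma markers were expressed in every library, with albumin at 4132, 4390 and 4279 FPKM in glyphosate+2,4-D and 4144, 3831 and 4134 FPKM in glyphosate. Of 18 markers of stromal, endothelial, blood and biliary cells, 12 were measured, and their summed level ran from 36.3 to 37.9 FPKM in glyphosate+2,4-D and from 40.0 to 41.3 FPKM in glyphosate. Almost all of it was SOX9, a biliary and progenitor factor that HepG2-type cells also make, since the other 11 summed to 1.95 to 2.29 FPKM in glyphosate+2,4-D and 2.32 to 2.42 FPKM in glyphosate. KDR and KRT7 were listed at 0 in all 6 libraries. In such bulk samples fewer cells of a type and less RNA per cell cannot be told apart, and the part of depth or of these markers in the results below was not tested.

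The size of the shift can be read from the whole set of genes. The median absolute difference was 0.07 on the log2 scale of FPKM + 1, against 0.09 for AMPA+2,4-D minus AMPA and 0.19 for 2,4-D minus unexposed cells. The 95% interval of a gene reached a median of 0.15 to either side (quartiles 0.11 and 0.21). For 10970 genes (90.4%) the whole interval lay inside a 1.5-fold change in FPKM + 1 in either direction. For genes at low levels the added 1 makes this bound wider in FPKM itself. By root mean square log2 distance over the genes tested, a glyphosate+2,4-D and a glyphosate library lay 0.230 to 0.263 apart (9 pairs). Libraries of the same group lay 0.241 to 0.244 apart in glyphosate+2,4-D and 0.210 to 0.237 apart in glyphosate. The distance between the groups thus overlapped with that between replicates, while any exposed library lay at least 0.361 from any unexposed one.

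A looser reading gave more genes on both sides. At an unadjusted p under 0.05 limma had 1526 genes (12.6%), 728 of them higher and 798 lower, against 433 higher and 1050 lower on the TPM scale, which rescales each library to the same sum. At an adjusted p under 0.1 limma on FPKM had 70, with 34 higher and 36 lower. The 3 libraries of glyphosate+2,4-D lay wholly above the 3 of glyphosate for 1209 genes and wholly below for 1345, together 21.1% of those tested, with a median absolute difference of 0.14. A point difference of 1.5-fold or more in FPKM + 1 was seen for 129 genes, 46 higher and 83 lower. Only 4 of these 129 were protein-coding, where 10106 of the genes tested were. Annotated as miRNA were 38 of 121 tested, as snoRNA 25 of 89, as antisense RNA 17 of 578 and as snRNA 13 of 49. In that order the libraries of the groups did not overlap for 11, 11, 16 and 4 of these. The median of the mean levels of the 129 genes was 2.07 FPKM.

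**Figure D1:**
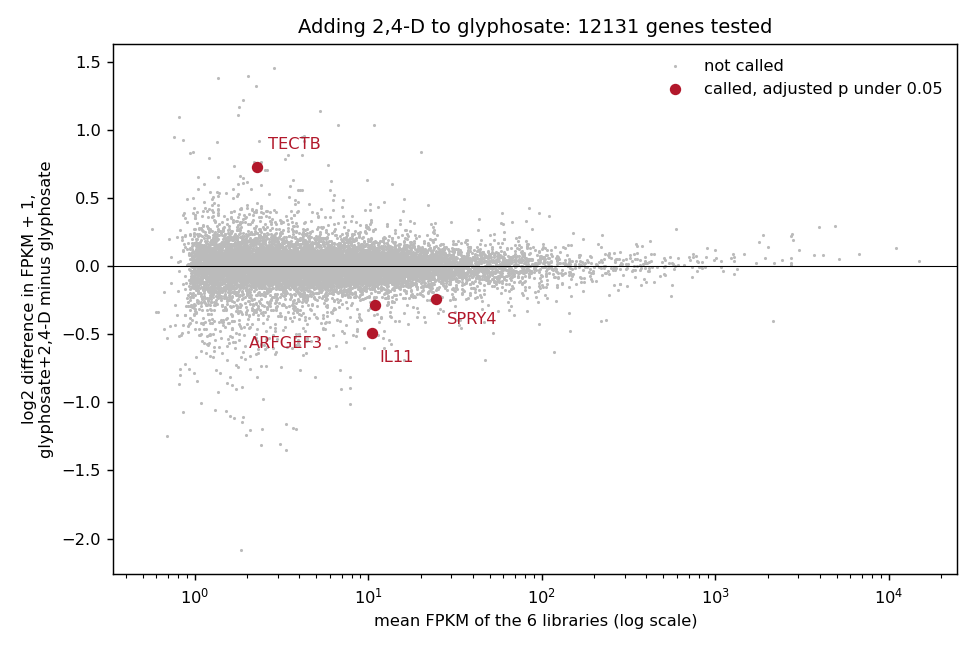
Log2 difference in FPKM + 1, glyphosate+2,4-D minus glyphosate, on the y axis against the mean FPKM of the 6 libraries on a log x axis, 1 point per gene tested (12131). The 4 called genes are labelled in red, with TECTB above 0 and IL11, ARFGEF3 and SPRY4 below it, and the wide scatter at the left is of genes at a few FPKM.

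TECTB (chr10:112283400-112305035, GRCh38, plus strand) was measured at 3.14, 3.05 and 3.04 FPKM in glyphosate+2,4-D and at 1.74, 1.36 and 1.30 FPKM in glyphosate. The groups were far apart and the glyphosate+2,4-D libraries nearly equal. Means were 3.08 ± 0.059 FPKM in glyphosate+2,4-D and 1.47 ± 0.24 FPKM in glyphosate (SD, n = 3 each). The log2 difference was 0.73 (SE 0.10, 95% interval 0.50 to 0.95, limma adjusted p = 0.0389). It was the single called gene past 1.5-fold, and the 6 libraries held 76 to 194 of its reads. With 2,4-D in the medium TECTB was also at 2.76, 2.82 and 2.14 FPKM over AMPA and at 2.97, 3.07 and 2.26 FPKM given alone. Without 2,4-D it was at 1.49, 1.41 and 1.14 FPKM in AMPA, and in unexposed cells it ran from 3.48 to 5.68 FPKM.

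IL11 (chr19:55364389-55370463, minus strand), whose promoter carries the AP-1 letters shown above, was at 9.35, 8.33 and 8.06 FPKM in glyphosate+2,4-D and at 13.37, 12.13 and 11.95 FPKM in glyphosate. Every glyphosate+2,4-D library lay below every glyphosate one. Its log2 difference was -0.49 (SE 0.06, 95% interval -0.63 to -0.36, limma adjusted p = 0.0317). The cytokine stood at 7.29, 8.44 and 8.03 FPKM in AMPA+2,4-D, against 11.75, 11.49 and 11.67 FPKM in AMPA, and at 9.95, 9.08 and 9.04 FPKM in 2,4-D alone. Unexposed cells had 5.20, 5.66 and 6.65 FPKM in replicates 1 to 3 and 2.01, 1.32 and 1.53 FPKM in replicates 4 to 6, so this group holds separate sets of libraries and all exposed libraries lay above both.

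SPRY4 (chr5:142310427-142326455, minus strand) was at 22.42, 22.1 and 22.66 FPKM in glyphosate+2,4-D and at 27.13, 26.9 and 25.93 FPKM in glyphosate. These values did not overlap, and the log2 difference was -0.24 (SE 0.04, 95% interval -0.32 to -0.16, limma adjusted p = 0.0441). It averaged 24.4 FPKM in AMPA+2,4-D and 26.2 FPKM in AMPA, 24.25 FPKM in 2,4-D alone and 10.85 FPKM in unexposed cells. ARFGEF3 (chr6:138161921-138344663, plus strand) was at 9.83, 9.69 and 9.70 FPKM in glyphosate+2,4-D and at 11.73, 11.90 and 12.61 FPKM in glyphosate. Its log2 difference was -0.28 (SE 0.04, 95% interval -0.37 to -0.20, limma adjusted p = 0.0327). It averaged 11.2 FPKM in AMPA+2,4-D, 11.7 FPKM in AMPA, 11.5 FPKM in 2,4-D alone and 9.14 FPKM in unexposed cells, so the glyphosate+2,4-D libraries were the lowest of the exposed ones.

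How firm these 4 calls are depended on the fit. With the 6 compared libraries fitted alone limma called 0 genes on the FPKM scale, with 1707 at an unadjusted p under 0.05, and voom on the recovered reads called 347 with the same 6 libraries and 115 over the 15 exposed libraries. All 4 genes were among the 115. Leaving out any 1 of the 6 libraries left 0 or 1 calls, the 1 being IL11 without replicate 1 of glyphosate+2,4-D.

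**Figure D2:**
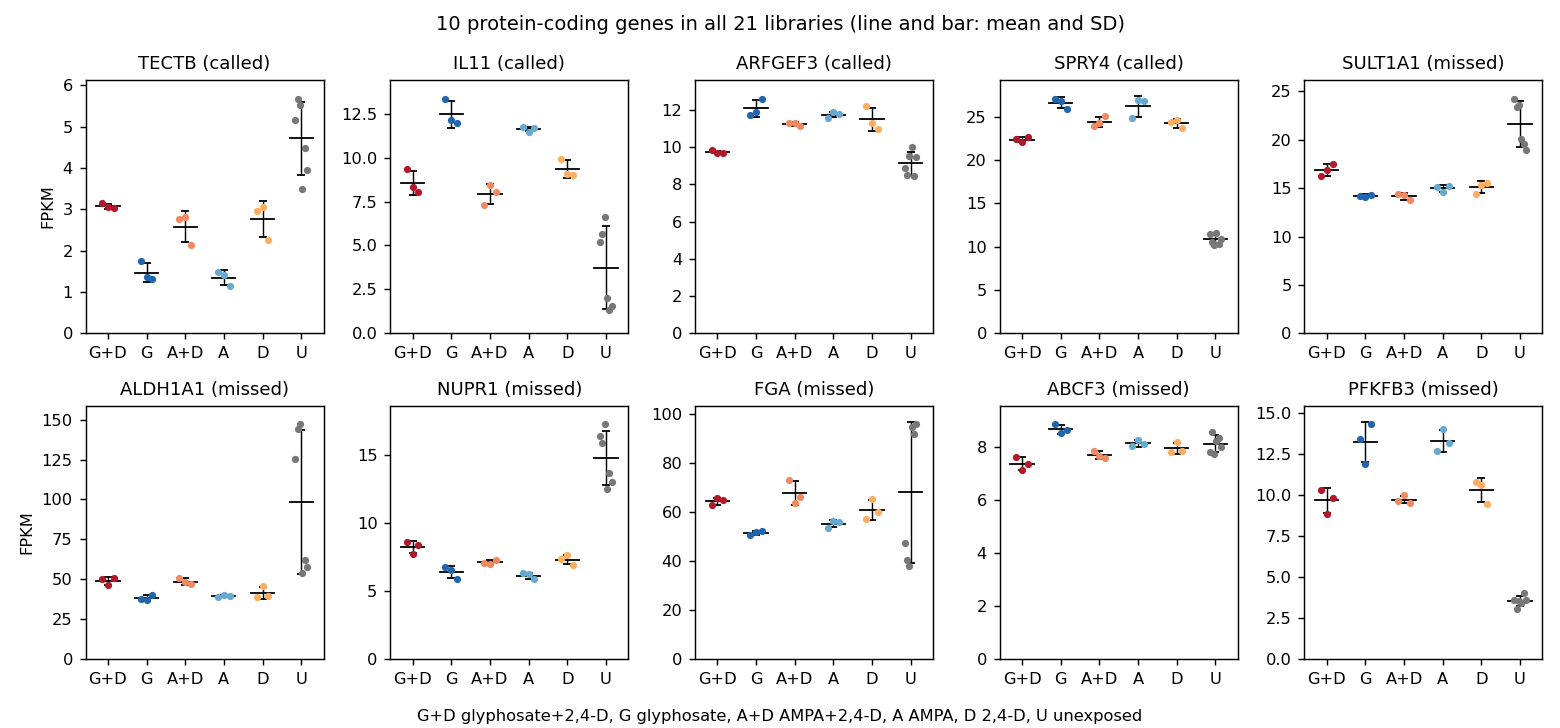
FPKM of 10 protein-coding genes in all 21 libraries, 1 panel per gene with the y axis from 0, groups from left to right glyphosate+2,4-D, glyphosate, AMPA+2,4-D, AMPA, 2,4-D and unexposed; lines and bars are means and SD. In the 4 called genes and the 6 that missed the test the points of glyphosate+2,4-D and glyphosate do not overlap, and IL11, FGA and ALDH1A1 show the separate sets of unexposed libraries.

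The next genes by p did not pass the test. SULT1A1, a sulfotransferase of phenolic compounds, was at 16.23, 16.86 and 17.47 FPKM in glyphosate+2,4-D and at 14.21, 14.06 and 14.34 FPKM in glyphosate, a log2 difference of 0.23 (SE 0.04). Its reads can be shared with near-identical paralogs and with a transcript annotated on the same exons. ALDH1A1, which oxidises retinal and other aldehydes, was at 49.88, 46.1 and 50.68 FPKM in glyphosate+2,4-D and at 37.87, 36.82 and 39.98 FPKM in glyphosate. NUPR1, a stress-responsive nuclear protein, averaged 8.22 ± 0.47 FPKM in glyphosate+2,4-D and 6.39 ± 0.45 FPKM in glyphosate. FGA, the fibrinogen alpha chain, averaged 64.35 ± 1.5 FPKM in glyphosate+2,4-D and 51.6 ± 0.84 FPKM in glyphosate (SD, n = 3 each). These 4 had log2 differences of 0.23, 0.35, 0.32 and 0.31 in that order, non-overlapping libraries and the same limma adjusted p of 0.0577.

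On the other side PFKFB3, which makes the main activator of phosphofructokinase and so of glycolysis, was at 10.34, 8.88 and 9.81 FPKM in glyphosate+2,4-D and at 13.44, 11.9 and 14.32 FPKM in glyphosate. Its log2 difference was -0.41 (SE 0.07). ABCF3, an ATP-binding protein without membrane domains, was at 7.63, 7.11 and 7.36 FPKM in glyphosate+2,4-D and at 8.84, 8.52 and 8.62 FPKM in glyphosate, a difference of -0.21. Both missed the test with a limma adjusted p of 0.0577. Among genes that do not code for protein, LINC02428 differed by 0.37 and the pseudogene UBE2FP1 by 0.65, while AC017074.1 differed by -0.61 and the pseudogene AQP7P1 by -0.58. LINC02428 passed the filter on low values only through the glyphosate+2,4-D libraries, so its direction was fixed by the filter. None of these 4 was called, and they rested on 8 to 129 reads per library.

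The gene groups are described by the members' differences beside those of all genes tested, whose median was -0.003. Of all genes tested 9.97% lay wholly higher in glyphosate+2,4-D and 11.1% wholly lower. The lists were chosen with earlier results of these libraries known, and their genes are not independent of each other. On the TPM scale the median of all genes tested was -0.03, and the list medians moved down with it, immediate early genes to -0.07, the ATF4 response to 0.03, acute phase genes to 0.04, conjugation enzymes to 0.007 and amino acid catabolism to 0.06. Except for SPRY4, limma on the FPKM scale called no member of any list, and the words called and passed the test refer to that fit in what follows. Voom on recovered reads called 0.462% of all genes tested higher and 0.486% lower. Its calls included 4 higher in amino acid catabolism, among them ASS1, HPD and AGXT, and 4 higher in the acute phase list, FGA, FGG, LCN2 and CFI. In conjugation it called SULT1A1, GSTA2 and MGST1 higher, in the ATF4 response PSAT1, PSPH and NUPR1 higher and GDF15 lower, and in glycolysis SLC2A1 and PFKFB3 lower. Single calls included GPAM, SERPINC1 and MT-CO3, higher, and BHLHE40, lower.

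The group that stood lowest was that of the ERK feedback genes, which are switched on by ERK signalling and dampen it. Of 12 tested, 9 lay wholly below glyphosate, 10 were below 0 and the median was -0.13. Only SPRY4 passed the test. The related inhibitor SPRY1 was at 11.47, 12.11 and 12.17 FPKM in glyphosate+2,4-D and at 13.96, 13.29 and 14.15 FPKM in glyphosate. DUSP6, the phosphatase that takes phosphate off ERK, was at 64.46, 68.06 and 67.06 FPKM in glyphosate+2,4-D and at 71.1, 70.11 and 74.85 FPKM in glyphosate. ERRFI1, an inhibitor of the EGF receptor, was at 349, 361.5 and 356.6 FPKM in glyphosate+2,4-D and at 396.2, 376.5 and 402.7 FPKM in glyphosate. The differences of these 3 were -0.20, -0.11 and -0.14, each without overlap and each short of the test. DUSP4, DUSP5, SPRED1, ETV4 and PHLDA1 also lay wholly lower, by -0.18, -0.19, -0.21, -0.11 and -0.12. SPRED2 overlapped at -0.05, and SPRY2 and ETV5 differed by 0.11 and 0.10 with overlapping libraries. Reads of PHLDA1 on shared exon bases cannot be told apart from those of a gene on the opposite strand, since the strand of the libraries is not stated. The same holds for IER3, HPD, SLC16A3 and TAGLN. Other genes shown, SLC2A1 among them, also share exon bases with an annotated neighbour. For CFI these are 1562 bases shared with a gene on the same strand.

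Immediate early genes, which are the first switched on after a growth signal, had 8 of 25 wholly lower and 1 wholly higher, with a median of -0.04. KLF6 was at 21.75, 21.98 and 21.5 FPKM in glyphosate+2,4-D and at 24.75, 23.66 and 26.51 FPKM in glyphosate. ATF3, FOSL2 and IER3 differed by -0.18, -0.19 and -0.21, each without overlap. Targets of YAP and TEAD, which respond to cell shape and tension, had 7 of 15 wholly lower, 0 wholly higher and a median of -0.09. The most distant was ANKRD1, at 30.04, 26.43 and 27.14 FPKM in glyphosate+2,4-D and at 33.62, 34.6 and 38.12 FPKM in glyphosate. Actin and serum response factor targets had 10 of 35 wholly lower and 1 wholly higher, with the smooth muscle gene TAGLN at -0.21 and the actin cross-linker FLNA at -0.16, while the calponin CNN3 lay wholly higher at 0.18. In collagens, laminins and integrins 5 of 16 were wholly lower and 1 wholly higher, and the median was -0.04. None of these members passed limma's test on FPKM, while voom called KLF6 (adjusted p = 0.045), ANKRD1 (adjusted p = 0.0277) and the integrin ITGAV (adjusted p = 0.008) lower.

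Genes of glycolysis and of the hypoxia response were below 0 in 28 of 36 cases, with 8 wholly lower, 0 wholly higher and a median of -0.07. Beside PFKFB3 these included the glucose carrier SLC2A1, at 137.7, 139.6 and 132.5 FPKM in glyphosate+2,4-D and at 161.6, 153 and 161.8 FPKM in glyphosate, a difference of -0.22. Hexokinase 2 (HK2) was at 85.95, 88.73 and 81.5 FPKM in glyphosate+2,4-D and at 98.2, 94.21 and 100.7 FPKM in glyphosate. The lactate exporter SLC16A3 differed by -0.23, and PFKFB4, a second enzyme of the PFKFB family, by -0.22. The enzymes further down the pathway overlapped between the groups, with LDHA at -0.08, PGK1 at -0.08, ENO1 at -0.04 and GAPDH at 0.04. Of the hypoxia genes, VEGFA differed by -0.05 and CA9 by 0.14 with overlap. Circadian clock genes had a median of -0.09, with 2 of 15 wholly lower and 1 wholly higher, and the repressor BHLHE40 was at 40.08, 41.99 and 41.88 FPKM in glyphosate+2,4-D and at 47.99, 48.06 and 52.29 FPKM in glyphosate. Its difference of -0.25 missed the test with a limma adjusted p of 0.0577.

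In amino acid catabolism and the urea cycle 25 of 30 tested were above 0, 14 lay wholly higher, 1 lay wholly lower and the median was 0.08. HPD, an enzyme of tyrosine breakdown, was at 175.4, 191.3 and 187.3 FPKM in glyphosate+2,4-D and at 157.7, 165.2 and 158.5 FPKM in glyphosate. ASS1, the urea cycle enzyme that joins citrulline and aspartate, was at 31.57, 34.29 and 34.55 FPKM in glyphosate+2,4-D and at 28.31, 26.51 and 24.65 FPKM in glyphosate. Their differences were 0.20 and 0.33, and the aminotransferase AGXT and the methionine adenosyltransferase MAT1A differed by 0.32 and 0.29. Limma on FPKM called no member, and the smallest limma adjusted p of the list was 0.0777, for HPD and ASS1. The urea cycle's first enzyme CPS1 differed by 0.07 with overlap and the wholly lower member was GOT1 at -0.07.

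Secreted liver proteins showed smaller counts. Of 24 acute phase and complement genes 6 were wholly higher and 0 wholly lower, with a median of 0.06. The fibrinogen gamma chain FGG was at 46.5, 47.4 and 47.45 FPKM in glyphosate+2,4-D and at 38.6, 38.85 and 39.65 FPKM in glyphosate, a difference of 0.27 that missed the test with a limma adjusted p of 0.0577. Lipocalin 2 (LCN2) was at 123.6, 118.9 and 127.3 FPKM in glyphosate+2,4-D and at 100.9, 101.8 and 84.33 FPKM in glyphosate. Of 13 coagulation genes 3 were wholly higher and 0 wholly lower, among them the antithrombin gene SERPINC1 with a difference of 0.27. Apolipoproteins and their assembly factor MTTP had 5 of 16 wholly higher and 3 wholly lower, with APOB at 0.14 and APOL1 at -0.29. All 8 hepatocyte markers were above 0, by 0.03 to 0.14, but only APOB and HNF4A did so without overlap. Of 17 hepatocyte transcription factors 4 were wholly higher and 1 wholly lower, with a median of 0.002.

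**Figure D3:**
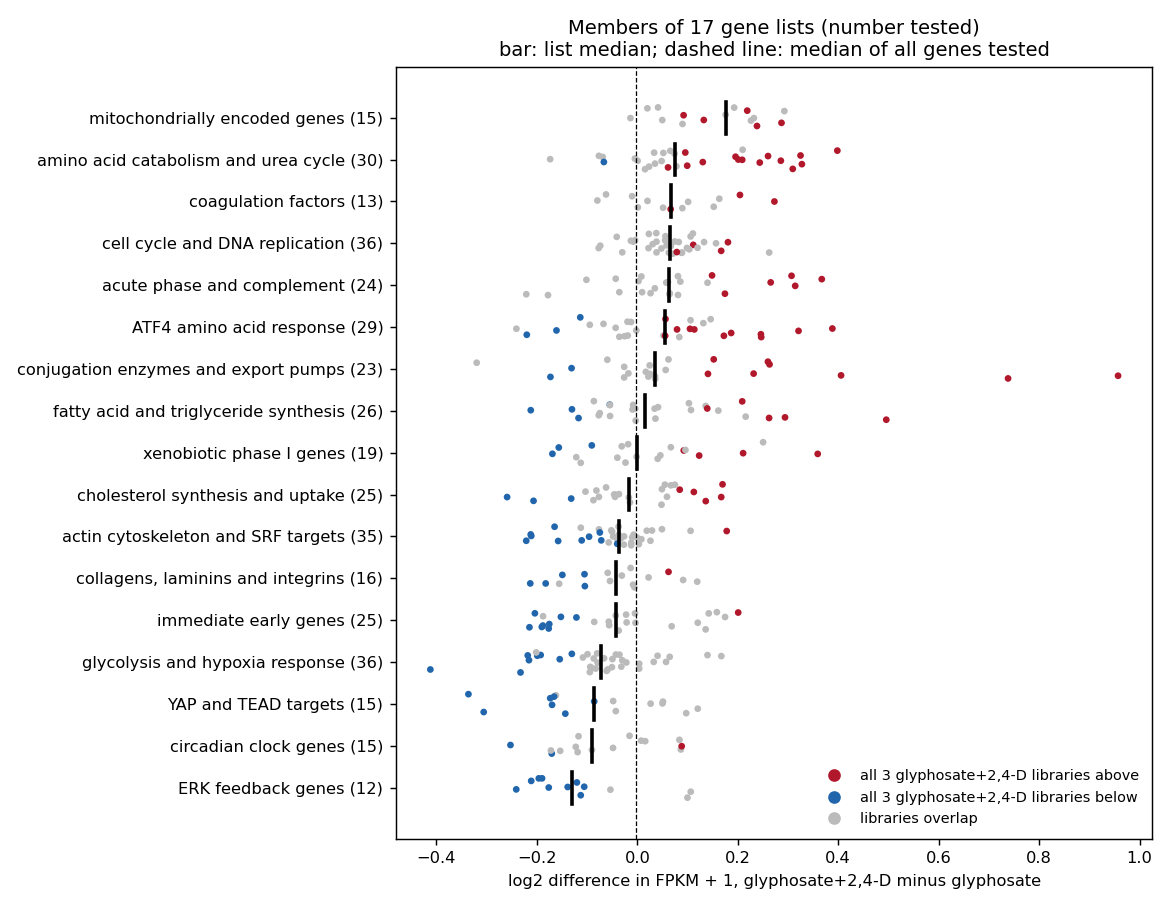
Log2 difference in FPKM + 1, glyphosate+2,4-D minus glyphosate, on the x axis for each tested member of 17 gene lists down the y axis, with the number tested in brackets; black bars are list medians and the dashed line is the median of all genes tested. Red points lie wholly above and blue points wholly below the glyphosate libraries, blue gathering in the ERK feedback list (9 of 12) and red in amino acid catabolism (14 of 30).

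Conjugation enzymes and export pumps, which attach polar groups to foreign compounds and expel them, had 8 of 23 wholly higher and 2 wholly lower with a median of 0.04. The glutathione transferase GSTA2 was at 6.89, 4.39 and 6.63 FPKM in glyphosate+2,4-D and at 3.14, 2.24 and 2.31 FPKM in glyphosate, a log2 difference of 0.96 (SE 0.19) that missed the test with a limma adjusted p of 0.0781. GSTA1 was at 2.38, 2.24 and 2.45 FPKM in glyphosate+2,4-D and at 1.26, 0.69 and 1.13 FPKM in glyphosate. These 2 genes are near-identical and may share reads. With TECTB and GPSM3, a regulator of G protein signalling that differed by -0.59, they are the 4 protein-coding genes whose point difference reached 1.5-fold in FPKM + 1. The added 1 shrinks the ratio of genes at low FPKM. AKR1D1, for example, averaged 2.60 FPKM in glyphosate+2,4-D and 1.66 FPKM in glyphosate, with overlap, but differed by 0.41 on that log2 scale. The glucuronosyltransferase UGT2B10 and the microsomal transferase MGST1 each differed by 0.26, while the methyltransferase TPMT lay wholly lower at -0.17.

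Cytochrome P450 genes and their regulators lay on both sides of 0. Of 19 phase I genes tested 4 were wholly higher and 3 wholly lower, with a median of -0.002. CYP1A1, the usual readout of the aryl hydrocarbon receptor, was at 5.40, 4.08 and 4.42 FPKM in glyphosate+2,4-D and at 6.20, 4.51 and 4.71 FPKM in glyphosate, with overlap and a 95% interval of -0.37 to 0.12. CYP2B6, a target of the xenobiotic receptor CAR, was at 15.91, 15.34 and 16.7 FPKM in glyphosate+2,4-D and at 17.36, 17.78 and 18.64 FPKM in glyphosate, a difference of -0.16 without overlap that was not called. CYP2D6 and the pregnane X receptor NR1I2 lay wholly higher by 0.36 and 0.21. CYP3A4 was not tested, at 0 to 2 reads per library.

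Genes of fat and sterol metabolism gave mixed counts. Of 29 targets of PPAR alpha and genes of fatty acid oxidation 7 were wholly higher and 5 wholly lower, with a median of 0.03. CPT1A, the carrier enzyme that admits fatty acids to mitochondria, was at 8.76, 8.95 and 8.22 FPKM in glyphosate+2,4-D and at 8.29, 8.78 and 8.81 FPKM in glyphosate, with a 95% interval of -0.09 to 0.09. PDK4, a sensitive PPAR target, had 2 to 8 reads per library and was not tested. GPAM, the first enzyme of triglyceride synthesis, was at 19.41, 17.4 and 20.2 FPKM in glyphosate+2,4-D and at 14.93, 13.5 and 11.3 FPKM in glyphosate, a difference of 0.50 that was not called. Its list had 5 of 26 wholly higher and 4 wholly lower. Of 25 genes of cholesterol synthesis and uptake 5 were wholly higher and 3 wholly lower, with a median of -0.02. Bile acid genes had 5 of 12 wholly higher and 2 wholly lower, with the bile acid receptor NR1H4 at 0.31. None of these passed limma's test on FPKM.

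Stress pathways were likewise divided. In the amino acid response driven by ATF4, 11 of 29 were wholly higher and 3 wholly lower, with a median of 0.06. The serine synthesis enzymes PSAT1 and PSPH both differed by 0.25, while the stress cytokine GDF15 was at 544.4, 494.6 and 492.9 FPKM in glyphosate+2,4-D and at 605, 585.3 and 593 FPKM in glyphosate, a difference of -0.22. Of 27 heat shock chaperones 3 were wholly higher and 3 wholly lower. HSPA6, a strictly inducible chaperone, was at 8.76, 13.21 and 18.18 FPKM in glyphosate+2,4-D and at 8.62, 9.30 and 9.96 FPKM in glyphosate, so that 2 libraries lay above the glyphosate range and 1 inside it. HMOX1, the haem oxygenase of the NRF2 response, was at 14.41, 15.13 and 14.67 FPKM in glyphosate+2,4-D and at 13.31, 12.44 and 12.18 FPKM in glyphosate, a difference of 0.21 without overlap that was not called. The NRF2 list had 4 of 25 wholly higher and 2 wholly lower, the unfolded protein response 1 of 24 wholly higher and 3 wholly lower, and the p53 targets 2 of 24 wholly higher and 5 wholly lower. CDKN1A, the p53-induced cell cycle inhibitor, differed by -0.04 with a 95% interval of -0.13 to 0.05.

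Cell cycle and replication genes were above 0 in 29 of 36 cases with a median of 0.06, but only 4 lay wholly higher, among them TOP2A and RRM2 at 0.18 and 0.17. Of 15 mitochondrially encoded genes 14 were above 0 and 5 wholly higher, with a median of 0.18, and replicate 3 of glyphosate+2,4-D stood above the others. MT-ATP6, for example, was at 2610, 2726 and 3688 FPKM in glyphosate+2,4-D and at 2559, 2530 and 2470 FPKM in glyphosate. Mitochondrially encoded genes held 21.25% ± 1.11 of the summed FPKM in glyphosate+2,4-D and 19.76% ± 0.21 in glyphosate (SD, n = 3 each, exact two-sided permutation p = 0.1, the smallest that 3 against 3 allows). The share of cytosolic ribosomal protein genes was 10.1% ± 0.12 in glyphosate+2,4-D and 10.15% ± 0.045 in glyphosate (exact two-sided permutation p = 0.7). IGFBP3, a binding protein of insulin-like growth factors, was at 18.44, 18.61 and 17.34 FPKM in glyphosate+2,4-D and at 21.11, 23.57 and 26.93 FPKM in glyphosate. DKK1, a secreted antagonist of WNT signalling, was at 28.77, 27.93 and 27.49 FPKM in glyphosate+2,4-D and at 35.8, 33.2 and 43.53 FPKM in glyphosate. Their differences of -0.37 and -0.40 were not called by limma on FPKM. Voom called DKK1 over the 15 exposed libraries (adjusted p = 0.0321), and with the 6 compared libraries alone it called both genes (adjusted p = 0.00121 for IGFBP3 and 0.00256 for DKK1). In both genes the glyphosate libraries spread more widely than those of glyphosate+2,4-D. For IGFBP3 the SD was 2.92 FPKM in glyphosate and 0.69 FPKM in glyphosate+2,4-D, and for DKK1 5.37 and 0.65 FPKM. The AMPA libraries spread more widely still, with an SD of 3.54 FPKM for IGFBP3 and 6.88 FPKM for DKK1.

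The medians of the lists library by library show how steady these shifts were. Each gene was set to its mean over the 6 libraries. For ERK feedback genes the medians were -0.06, -0.05 and -0.07 in glyphosate+2,4-D and 0.07, 0.02 and 0.10 in glyphosate. For amino acid catabolism they were 0.04, 0.05 and 0.05 in glyphosate+2,4-D and -0.06, -0.03 and -0.07 in glyphosate. The libraries of both groups were thus apart for these lists. For glycolysis and hypoxia they were -0.08, 0.04 and -0.06 in glyphosate+2,4-D and 0.01, 0.004 and 0.11 in glyphosate, with replicate 2 of glyphosate+2,4-D inside the glyphosate range. For circadian clock genes replicate 1 of glyphosate+2,4-D, at 0.05, lay inside the glyphosate range of 0.03 to 0.06.

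**Figure D4:**
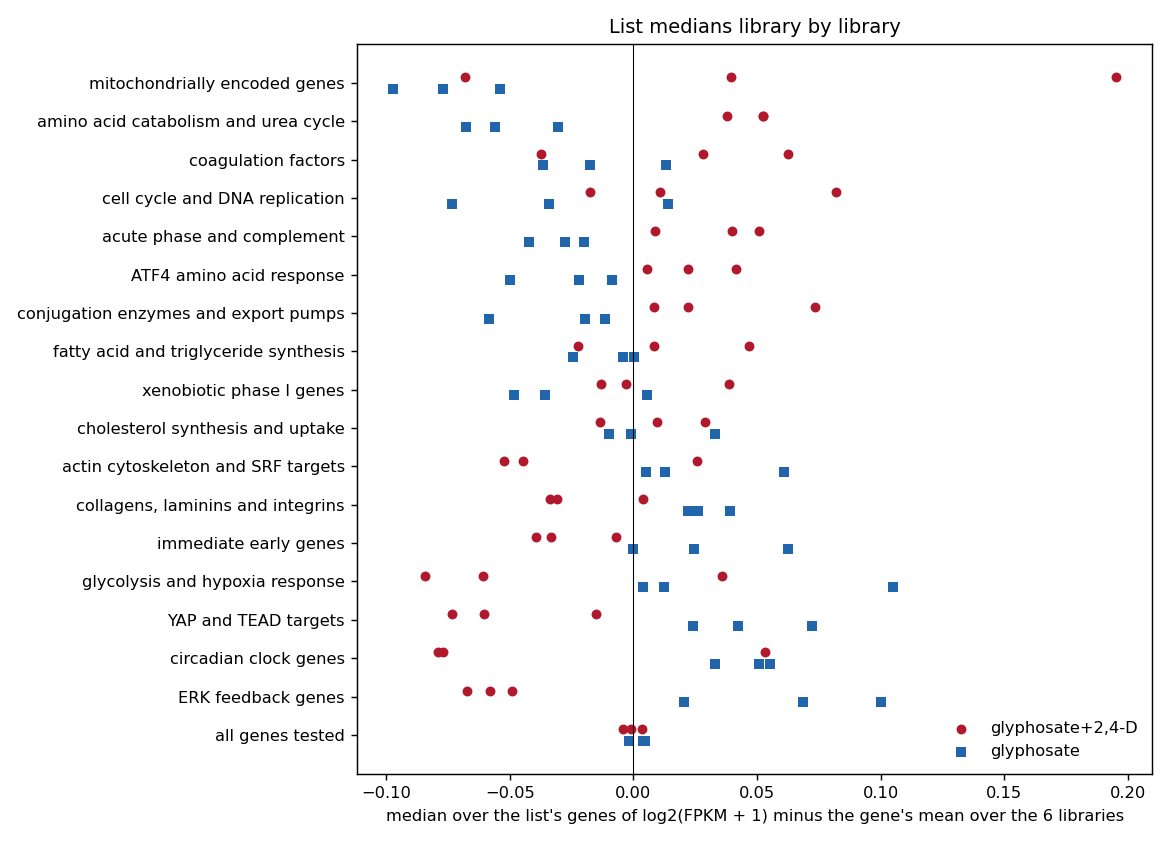
For all genes tested and 17 gene lists down the y axis, the median over genes of log2 FPKM + 1 minus the gene's mean over the 6 libraries (x axis), with 1 point per library, red circles for glyphosate+2,4-D and blue squares for glyphosate. The groups lie apart for ERK feedback genes, YAP targets and amino acid catabolism and overlap for coagulation, cell cycle and circadian genes.

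The same compound was added over AMPA in libraries that share none with the comparison above. The doses of 2,4-D were equal. There limma called 973 genes (8.02%), 320 higher (2.64%) and 653 lower (5.38%) in AMPA+2,4-D. Replicates 1 and 3 of AMPA+2,4-D stood apart from replicate 2, at a distance of 0.320 and 0.331 against 0.233 between themselves. With both left out 1 library of AMPA+2,4-D remained, so a count of calls without them cannot show their part. The difference between adding 2,4-D over glyphosate and over AMPA was tested gene by gene and called for 0 genes by limma on the FPKM scale, with 1619 at an unadjusted p under 0.05. The smallest adjusted p among the named genes was 0.0681, for SULT1A1 and AC017074.1. Voom on recovered reads called 148 genes in that test. Without replicate 2 of AMPA+2,4-D, limma on the FPKM scale called 258.

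Over AMPA, TECTB rose to 2.58 FPKM in AMPA+2,4-D, against 1.35 FPKM in AMPA, a log2 difference of 0.60 (limma adjusted p = 0.00786). IL11 fell to 7.92 FPKM in AMPA+2,4-D, against 11.6 FPKM in AMPA, by 0.50 on the log2 scale (limma adjusted p = 0.00312). PFKFB3 fell by 0.41 (adjusted p = 0.00734), and ALDH1A1, FGA and NUPR1 rose by 0.30, 0.28 and 0.19 (adjusted p = 0.0109, 0.00985 and 0.0497). SPRY4 and ARFGEF3 differed by -0.10 and -0.06 over AMPA and were not called there, and SULT1A1 differed by -0.08 against 0.23 over glyphosate. Of the 10 protein-coding genes named, 9 thus had the same sign over AMPA and 6 were called there, against 8.02% of all genes tested. These 10 were named by calls or small p in a fit whose estimate of the spread both contrasts share. The sign was the same for 69.9% of the 2554 genes without overlap. Among all genes tested the sign was the same for 58.4%, and Pearson's r across genes was 0.26, as a description over genes that are not independent. For the 3861 genes with a mean of at least 10 FPKM it was 0.39, and it was 0.09 with replicate 2 of AMPA+2,4-D taken alone and 0.27 with replicates 1 and 3.

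The list medians over AMPA are given beside these, with no test between them. ERK feedback genes had a median of -0.08 over AMPA, YAP targets -0.12, glycolysis and hypoxia genes -0.23 with 21 of 36 called lower, and actin genes -0.18 with 19 of 35 called lower, where 5.38% of all genes tested were called lower. Replicates 1 and 3 of AMPA+2,4-D stood apart from replicate 2, and their part in these calls was not tested. With the 6 libraries of AMPA+2,4-D and AMPA fitted alone 3 genes were called in all. Amino acid catabolism had a median of 0.005 over AMPA, against 0.08 over glyphosate. Acute phase genes had -0.08 over AMPA, against 0.06 over glyphosate.

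**Figure D5:**
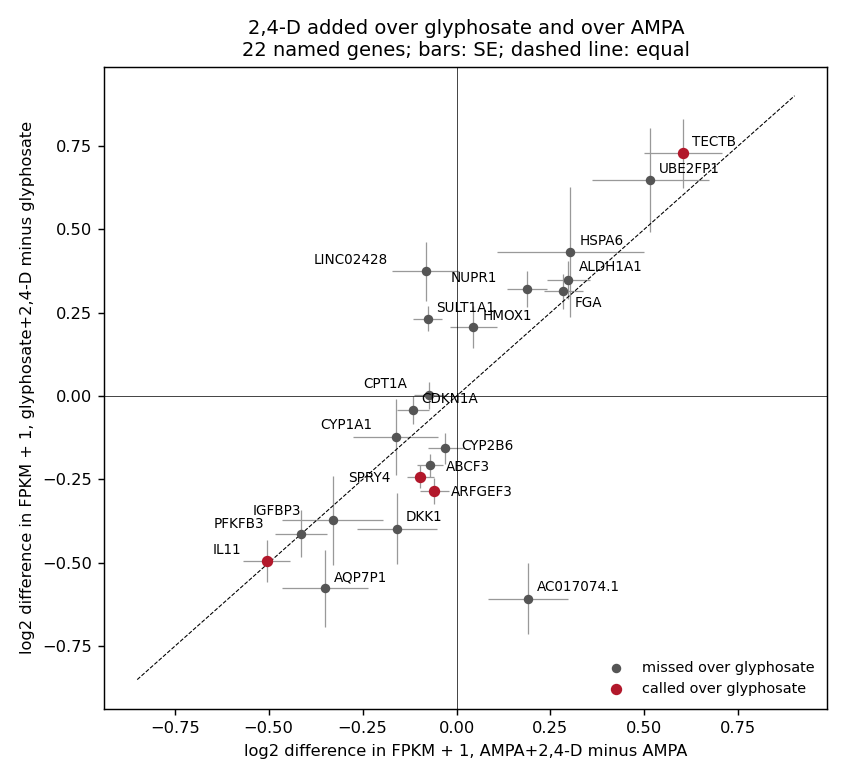
Log2 difference in FPKM + 1 on adding 2,4-D over glyphosate (y axis) against that over AMPA (x axis) for 22 named genes, with bars of 1 SE and a dashed line of equal differences; red points were called over glyphosate. IL11, PFKFB3 and TECTB lie near the line, while SULT1A1 and AC017074.1 have opposite signs on the axes.

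Given to unexposed cells, 2,4-D went with a much larger difference, with 6040 genes called (49.8%). The difference between adding 2,4-D over glyphosate and over unexposed cells was called for 4314 genes (35.6%) by limma over all 21 libraries. The unexposed libraries fall into separate sets, replicates 1 to 3 and 4 to 6, and 5608 or 4790 genes were called when 1 set was used. For the 4 genes called over glyphosate, the difference of 2,4-D minus unexposed cells had the opposite sign. Glyphosate alone and AMPA alone lay on the same side of unexposed cells as 2,4-D for each of these genes. Median distances from unexposed libraries were 0.460 for glyphosate, 0.457 for AMPA and 0.423 for 2,4-D. An effect of 2,4-D on unexposed cells thus cannot be told apart from what separates exposed from unexposed libraries. TECTB fell by 0.59 in 2,4-D relative to unexposed cells, and IL11, SPRY4 and ARFGEF3 rose by 1.30, 1.09 and 0.30. Of the 10 protein-coding genes named, 9 had opposite signs in these comparisons, as did 59.1% of all genes tested and 69.7% of the 2554 genes without overlap. In the 3 groups that held 2,4-D, IL11 averaged 8.58 FPKM in glyphosate+2,4-D, 7.92 FPKM in AMPA+2,4-D and 9.35 FPKM in 2,4-D alone (n = 3 each).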

How the data were processed

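RNA sequencing of C3A cells gave 21 libraries, of which the 6 compared and their companions were read from 6 deposited tables. Per the submitters' processing notes, HISAT2 2.0.5 and featureCounts 1.5.0-p3 were used with GRCh38 (hg38). The values the authors deposited are FPKM, and the scaling total, the filter on genes and the strand of the kit are not given in the sources used here. FPKM times gene length came out as whole reads, within 0.1 of a read, for 100% of values in each library, which gave the read numbers used with voom. An absent gene was taken as 0, which touched 0 of the genes tested in the compared tables.

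Genes with an FPKM of at least 1 in at least 3 of the 6 libraries were tested on log2(FPKM + 1) with limma 3.58.1 in R 4.3.3, by group means over the 15 exposed libraries with a mean-variance trend. That shared 1 estimate of the spread among 5 groups with 10 residual degrees of freedom. The contrast with unexposed cells was fitted over all 21 libraries. Shares of FPKM were compared by exact permutation tests over libraries. The procedure was also run on simulated libraries whose genes varied independently. That run cannot show how firm the calls in the real libraries are. Promoter sequences are those of RefSeq.

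Named genes were the protein-coding genes called without overlap, up to 10 each way, filled to 5 each way by smallest p, 2 non-coding genes each way by the same rule, called list members, and CYP1A1, CYP2B6, CYP3A4, PDK4, CPT1A, HMOX1, CDKN1A, HSPA6, IGFBP3 and DKK1 always. Other list members, GPSM3 and GSTA1 were chosen after their values were seen, most of them as those with the smallest p in a list. The comparison, the 38 gene lists and the tests were chosen with earlier results of these data known. Some members of the lists are not reported here. Other settings were a pseudocount of 0.1, no filter, a filter at 5 FPKM, median-of-ratios scaling, TPM, voom, the replicate block, array weights, other sets of libraries and each library left out.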

Additional observations from a re-analysis of the deposited data

Results flagged for a closer look

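The difference between adding 2,4-D over glyphosate and over unexposed cells was called by limma for 4314 genes. Among the named genes this difference passed an adjusted p of 0.05 for 18, on the log2 scale of FPKM + 1. It was above 0 for TECTB (1.32), SULT1A1 (0.72), ALDH1A1 (1.44), NUPR1 (1.24), UBE2FP1 (0.95) and HMOX1 (1.15). It was below 0 for IL11 (-1.79), ARFGEF3 (-0.59), SPRY4 (-1.33), ABCF3 (-0.18), PFKFB3 (-1.73), AC017074.1 (-0.74) and AQP7P1 (-1.15). It was also below 0 for CYP2B6 (-0.54), CDKN1A (-0.30), HSPA6 (-1.71), IGFBP3 (-2.96) and DKK1 (-3.02). The unexposed libraries form separate sets and differ from all exposed libraries, and their part in these values was not tested. A 2,4-D effect that depends on the starting point cannot be told apart from that difference.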

How the results depend on the processing

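The count of 4 called genes (1 higher, 3 lower, 1 past 1.5-fold on the scale of the fit) was 4 with a pseudocount of 0.1 and 3 with median-of-ratios scaling. It was 19 (5 higher, 14 lower, 3 past 1.5-fold) with no filter, 29 (14 and 15, 0) with a filter at 5 FPKM, 115 (56 and 59, 3) with voom and 55 (29 and 26, 4) with array weights. It was 0 (0 and 0, 0) by limma with TPM, with the compared groups alone and with all 21 libraries, where 1483, 1707 and 1005 genes had an unadjusted p under 0.05, and 2 (1 and 1) with AMPA+2,4-D replicates 1 and 3 left out, with 0 past 1.5-fold. Settings added after the data were seen gave 347 (149 and 198, 19) with voom on the compared groups alone, 2 (1 and 1, 0) without any AMPA+2,4-D library and 7 (4 and 3) without its replicate 2. Leaving out 1 of the 6 libraries gave 0 to 1 calls, with 0 to 0 higher, 0 to 1 lower and 0 to 0 past 1.5-fold. The cause of these shifts was not tested. The replicate block gave 2 calls (1 and 1). Same-numbered libraries of glyphosate+2,4-D and glyphosate did not deviate together over all genes (correlations of -0.009, -0.052 and 0.008). These correlations cover 2 groups and all genes at once, so they cannot show whether libraries were paired. AMPA+2,4-D against AMPA gave 973 calls, 567 with no filter, 1588 with voom and 1473 with array weights. It gave 3 with the compared groups alone and 387 with all 21 libraries. Without replicate 2 of AMPA+2,4-D it gave 1676, and with 1 library left out 246 to 1676. The difference over glyphosate and over AMPA, with 0 calls, gave 6 with no filter, 22 with the filter at 5 FPKM, 1 with TPM, 148 with voom, 32 with array weights, 1 with the compared groups alone, 258 without replicate 2 of AMPA+2,4-D and 0 to 258 with 1 library left out. The difference from unexposed cells moved from 4314 to 2861 with the filter at 5 FPKM, where fewer genes were tested, and ran from 3687 to 4547 with 1 library left out. The difference in ribosomal protein share, -0.048 percentage points, was 0.077 in shares of recovered reads and ran from -0.107 to 0.011 with 1 library left out. The signs of the 4 called genes held in every setting; TECTB, IL11, ARFGEF3 and SPRY4 were called in 7 of 18, 11 of 19, 7 of 19 and 6 of 19 settings. With 3 libraries a group, differences under about 0.15 on the log2 scale lie inside the median interval.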
